A study of Mus musculus with 16 samples.

Results

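The genes for the AMPA receptor subunits (*Gria1*, *Gria2*, *Gria3* and *Gria4*) and for the RNA-editing enzyme ADAR2 (*Adarb1*) were examined in spinal cord RNA of a mouse model of amyotrophic lateral sclerosis (ALS). They were chosen by gene symbol, and all 5 were among the 18167 genes measured. AMPA receptors are assembled from the subunits GluA1 to GluA4 and carry most fast excitatory transmission in the spinal cord. A receptor lets little calcium through when it holds GluA2 whose pore codon has been edited by ADAR2 from glutamine to arginine, and it is permeable to calcium when GluA2 is missing or unedited. Motor neurons are known to be sensitive to calcium that enters this way, which is why transcripts of the subunits and of the enzyme are read together in studies of excitotoxicity.

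The 16 mice were labelled male and formed 4 groups. Mutant young (MY, n = 3) and mutant old (MO, n = 5) mice were C57BL/6N mice with the transgene Tg(Prnp-PFN1*G118V)838Kiaei, which encodes human profilin 1 with the G118V change. Wild-type young (WY, n = 3) and wild-type old (WO, n = 5) mice were C57BL/6N mice with Tg(Prnp-PFN1)850Kiaei, the unchanged human gene, so all 4 groups were transgenic and non-transgenic mice were not analysed here. Both transgenes were driven by the mouse prion protein promoter, which is not restricted to motor neurons. The MY mice (before symptoms) and the WY mice were 50 days old. MO mice had reached end stage, when a mouse can no longer right itself, at 198, 190, 245, 224 and 175 days for MO1 to MO5. WO1 to WO3 were 190 days old, and WO4 and WO5 were 294 days old, older than every MO mouse. Libraries of replicates 4 and 5 of MO and WO formed batch 2, and all others formed batch 1. The authors aligned reads to mm10 and deposited log2(1 + FPKM) adjusted for batch, where FPKM is a fragment count scaled for transcript length and library size. Fragment counts per gene were not analysed here, and errors given here are the spread across mice. Levels are on that log2 scale unless FPKM is named, and a fold change is the second group's mean minus that of the first.

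WY1, MO5 and MO1 each stood apart from other libraries in some measure. The X-inactivation gene *Xist* reached 3.21 in MO5 and no more than 0.37 in any of the 15 remaining mice. *Ddx3y*, carried on the Y chromosome, was 1.95 in MO5 and 4.06 or higher in the rest, which goes against the male label of MO5. *Gria3* is X-linked, so its values are also given without MO5. In WY1, the glycine transporter gene *Slc6a5*, a marker of inhibitory neurons, was at 4.02, against 5.93 and 5.79 in WY2 and WY3, and the choline acetyltransferase gene *Chat* was at 3.08, against 3.72 and 3.72. WY1 also held the lowest WY value of all 5 genes examined. MO1 had the largest mean distance to its group over all genes in MO (38.05, against 30.8 to 34.13 in MO2 to MO5, and 38.47 for WY1 in WY), and its blood markers summed to 38.6 FPKM, against 131.5 to 209.1 in the other MO mice. Libraries further differed in how far values depended on transcript length. The slope of a mouse's deviations against log10 transcript length was negative in 4 of 5 MO mice (-0.233 to 0.0294, median -0.151), in 2 of 3 WY mice (-0.183 in WY1, 0.211 in WY2 and -0.014 in WY3), in 2 of 5 WO mice (-0.0517 to 0.135, median 0.061) and in no MY mouse (0.0625 to 0.171).

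In every group mean, *Gria4* was the most abundant of the 5 genes, followed by *Adarb1*, *Gria2*, *Gria1* and *Gria3*. Averaged over the 16 mice, *Gria4* reached 49.3 FPKM, *Adarb1* 43.8, *Gria2* 38.8, *Gria1* 31.0 and *Gria3* 25.5 FPKM, and each lay above 80.9% or more of all genes. The ranking *Gria4*, *Adarb1*, *Gria2* held in each of the 11 mice outside MO. Within MO it loosened, with *Gria2* above *Adarb1* in 2 of 5 mice and above *Gria4* in 1. Neighbours that differed by less than their SD were *Adarb1* and *Gria2* in MO and WY, *Gria2* and *Gria1* in MO, and *Gria1* and *Gria3* in WO.

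*Adarb1* encodes ADAR2, the enzyme that edits the *Gria2* transcript. At end stage it was lower in mutant mice than in WO and MY mice, with little spread between mice. Its level in MO1 to MO5 was 5.30, 5.26, 5.23, 5.19 and 5.28. In WO1 to WO5 it was 5.63, 5.61, 5.70, 5.59 and 5.64, and in MY1 to MY3 5.62, 5.55 and 5.62. Every MO mouse lay below every WO and MY mouse, in both batches. The fold change in WO vs. MO was -0.38 (SE 0.035, 95% interval -0.46 to -0.30, limma FDR 3.9e-05), and it was -0.38 within batch 1 (3 against 3 mice) and -0.38 within batch 2 (2 against 2). In MY vs. MO it was -0.35 (SE 0.041, 95% interval -0.44 to -0.25, limma FDR 0.000816), and -0.34 with the MO mice of batch 1 alone. These comparisons share the MO mice, and so are not separate evidence. In FPKM, *Adarb1* averaged 37.1 ± 1.19 (SD, n = 5) in MO and 48.7 ± 1.44 (SD, n = 5) in WO. In bulk tissue, fewer cells of a type and less RNA per cell cannot be told apart.

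*Gria2* encodes GluA2, the subunit that sets calcium permeability. It did not pass the test in any comparison. Its level was 5.39, 5.01, 5.25, 5.12 and 5.23 in MO1 to MO5 and 5.19, 5.33, 5.27, 5.46 and 5.41 in WO1 to WO5. MO1, the highest MO mouse, lay above 3 of the WO mice, and MO2 and MO4 lay below all of them. The fold change in WO vs. MO was -0.13 (SE 0.075, 95% interval -0.30 to 0.035, limma FDR 0.232). Within batch 1 it was -0.046 and within batch 2 -0.26, a difference that was not tested. The WO mice of batch 2 were also older than those of batch 1. In MY1 to MY3 the level was 5.41, 5.44 and 5.45, above every MO mouse, and the fold change in MY vs. MO was -0.23 (SE 0.079, 95% interval -0.41 to -0.052, limma FDR 0.0633). Leaving out MO1 brought this comparison past the threshold, at -0.28 (limma FDR 0.0152). With the transcript length trend removed, an alternative chosen after seeing the data, the fold change was -0.088 (limma FDR 0.337) in MY vs. MO and -0.032 (limma FDR 0.727) in WO vs. MO. The longest annotated *Gria2* transcript has 10371 bases, against 5206 to 5546 for the other subunits.

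*Gria3* encodes GluA3, a subunit that is not edited at the pore codon. Its level was 4.49, 4.34, 4.42, 4.57 and 4.47 in MO1 to MO5, 4.82, 4.85, 4.92, 4.86 and 4.91 in WO1 to WO5 and 4.88, 4.82 and 4.83 in MY1 to MY3. In WY1 to WY3 it was 4.54, 4.89 and 4.78. All MO mice lay below all WO and MY mice, MO5 among them in the middle of its group. The fold change was -0.41 (SE 0.045, 95% interval -0.51 to -0.31, limma FDR 0.000107) in WO vs. MO, with -0.44 in batch 1 and -0.37 in batch 2. In MY vs. MO it was -0.39 (SE 0.054, 95% interval -0.51 to -0.26, limma FDR 0.00166), and -0.43 in batch 1. Without MO5 it was -0.41 (limma FDR 0.00042) in WO vs. MO and -0.39 (limma FDR 0.00428) in MY vs. MO.

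*Gria4* encodes GluA4, also unedited at the pore codon. It had the highest level and the largest fold change of the 5 genes in MY vs. MO. The level in MO1 to MO5 was 5.32, 5.32, 5.28, 5.49 and 5.37, against 5.69, 5.74, 5.87, 5.77 and 5.75 in WO1 to WO5 and 5.86, 5.79 and 5.81 in MY1 to MY3. In WY1 to WY3 it was 5.46, 5.87 and 5.79. As for *Gria3*, no MO mouse reached the lowest WO or MY mouse. The fold change was -0.46 (SE 0.052, 95% interval -0.58 to -0.34, limma FDR 0.000672) in MY vs. MO, and -0.51 in batch 1. In WO vs. MO it was -0.41 (SE 0.048, 95% interval -0.52 to -0.30, limma FDR 0.000156), with -0.46 in batch 1 and -0.33 in batch 2. In FPKM, *Gria4* averaged 40.0 ± 2.34 (SD, n = 5) in MO, 53.4 ± 2.50 (SD, n = 5) in WO and 55.5 ± 1.41 (SD, n = 3) in MY.

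*Gria1* encodes GluA1, which forms calcium-permeable receptors when GluA2 is absent. It was the member with no lower mean in MO. Its level was 5.21, 5.11, 5.00, 5.03 and 5.08 in MO1 to MO5, 4.80, 4.88, 5.02, 5.07 and 4.85 in WO1 to WO5 and 4.99, 5.01 and 5.07 in MY1 to MY3. MO overlapped with both groups. The fold change was 0.16 (SE 0.061, 95% interval 0.025 to 0.29, limma FDR 0.0766) in WO vs. MO, with 0.20 in batch 1 and 0.092 in batch 2, and 0.061 (SE 0.053, 95% interval -0.061 to 0.18, limma FDR 0.467) in MY vs. MO. The latter was 0.029 without MO1 and 0.12 with the length trend removed. The WO vs. MO difference passed the threshold with all 4 groups in 1 fit (0.16, limma FDR 0.0347), without WO4 (0.20, limma FDR 0.037) and with the length trend removed (0.20, limma FDR 0.0165). Over its 20 alternatives the FDR ran from 0.0165 to 0.185.

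**Figure D1:**
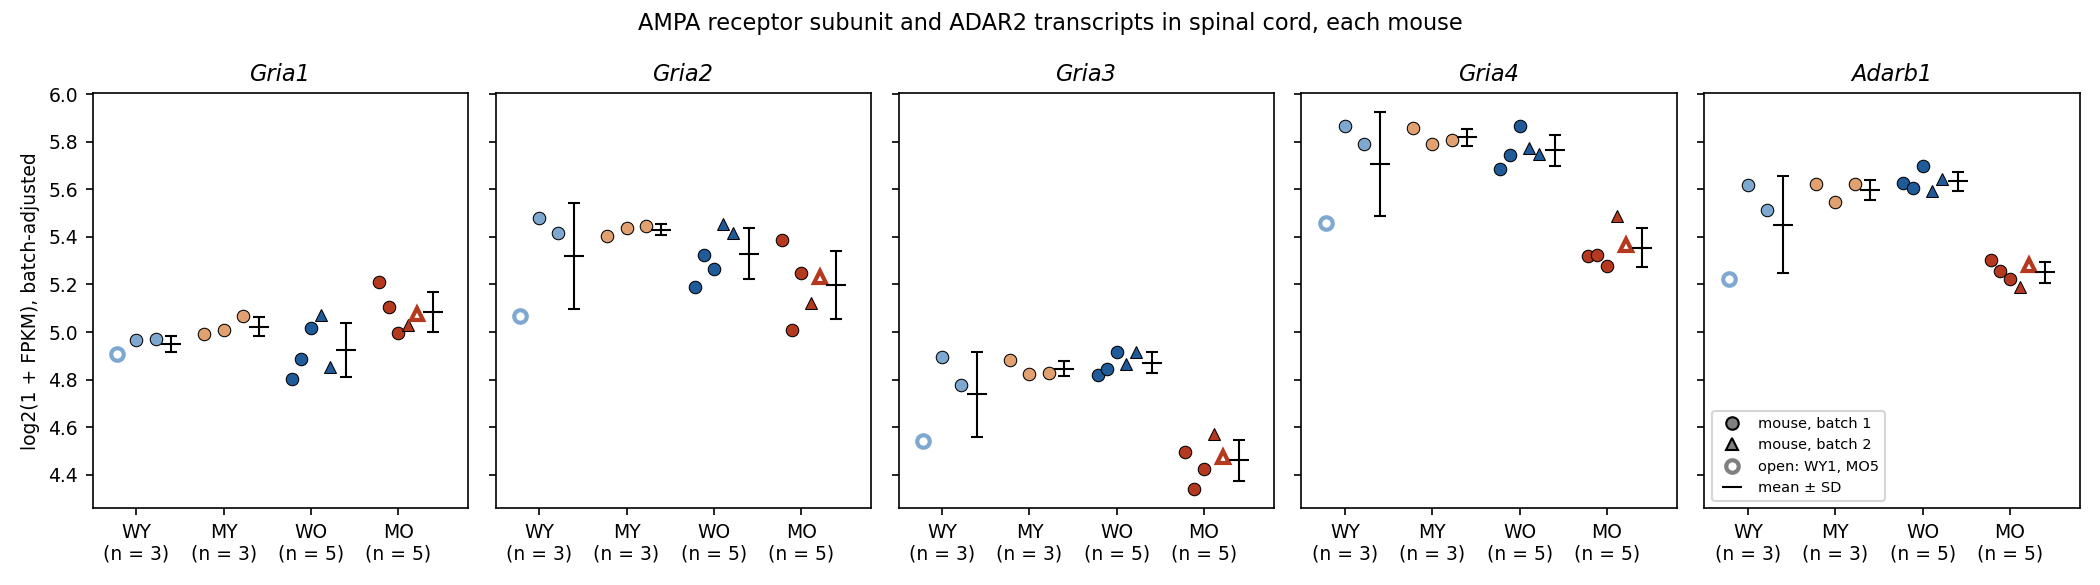
Level of each gene, log2(1 + FPKM) adjusted for batch, in each of the 16 mice by group. Points are mice (circles batch 1, triangles batch 2), open symbols are WY1 and MO5, and bars are the mean ± SD. For *Gria3*, *Gria4* and *Adarb1* the 5 MO mice lie below all WO and MY mice, whereas for *Gria1* and *Gria2* MO and WO overlap.

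Counted over the 5 genes, *Gria3*, *Gria4* and *Adarb1* were lower at FDR 0.05 and 0 were higher in MY vs. MO, where 12.5% of all genes were lower and 13.1% higher. In WO vs. MO the same 3 genes were lower and 0 higher, against 12.9% and 15% of all genes. With a fold change of at least 1.5 required as well, 0 of the 5 passed in either comparison, against 4.9% of all genes in MY vs. MO and 4.6% in WO vs. MO. In WY vs. WO (age in the wild-type line) 0 of 5 passed, against 1.12% of all genes in either direction, and in WY vs. MY (genotype before symptoms) 0 of 5, against 0.0055%. At an unadjusted limma p under 0.05 the count was 0 of 5 in both, against 13.5% and 7.16% of all genes. Groups that do not overlap were not counted over all genes, so a lack of overlap is given as a description only.

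Before symptoms, each of the 5 genes had a higher mean in MY than in WY, by 0.075 (*Gria1*) to 0.15 (*Adarb1*). For *Adarb1* the values were 5.22, 5.62 and 5.51 in WY1 to WY3, and the fold change was 0.15 (SE 0.10, 95% interval -0.10 to 0.39, limma FDR 0.743). WY1 was the lowest of these mice. Without it the *Adarb1* difference was 0.032, that of *Gria3* went from 0.11 to 0.010, and those of *Gria2* and *Gria4* turned to -0.017 and -0.010. Over 14 alternatives the *Adarb1* difference ran up to 0.229 and that of *Gria3* up to 0.185. With the length trend removed, *Gria1* was at 0.040 and *Gria2* at 0.037. *Gria1* was at 4.91, 4.97 and 4.97 in WY and 4.99, 5.01 and 5.07 in MY, a fold change of 0.075 (SE 0.043, 95% interval -0.029 to 0.18, limma FDR 0.722). With age in the wild-type line, *Adarb1* had the fold change nearest to the threshold, 0.18 (SE 0.082, 95% interval -0.0059 to 0.37, limma FDR 0.391). It was 0.068 (limma FDR 0.641) without WY1, against 0.19 in batch 1 alone.

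The change with age differed between the mutant and the wild-type line for 3 of the 5 genes. The contrast was the MY to MO change minus the WY to WO change, fitted on all 16 mice. It was -0.53 (SE 0.094, 95% interval -0.73 to -0.33, limma FDR 0.00144) for *Adarb1* and -0.52 (SE 0.094, 95% interval -0.72 to -0.32, limma FDR 0.00166) for *Gria3*. For *Gria4* it was -0.52 (SE 0.11, 95% interval -0.75 to -0.29, limma FDR 0.00417). Of all genes, 7.19% were lower in this contrast and 10.5% higher. *Gria2* was at -0.24 (SE 0.13, 95% interval -0.53 to 0.047, limma FDR 0.245) and *Gria1* at 0.084 (SE 0.086, 95% interval -0.10 to 0.27, limma FDR 0.566), and neither passed. The *Gria2* value was -0.11 without WY1 and -0.069 with the length trend removed, and its FDR ran from 0.116 to 0.649 over 25 alternatives. The *Gria1* value was 0.16 with the length trend removed, 0.052 without MO1 and 0.053 without WO1. Without WY1 and MO5 the 3 genes passed with -0.42 (limma FDR 0.0011) (*Adarb1*), -0.43 (limma FDR 0.0038) (*Gria3*) and -0.40 (limma FDR 0.00612) (*Gria4*).

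**Figure D2:**
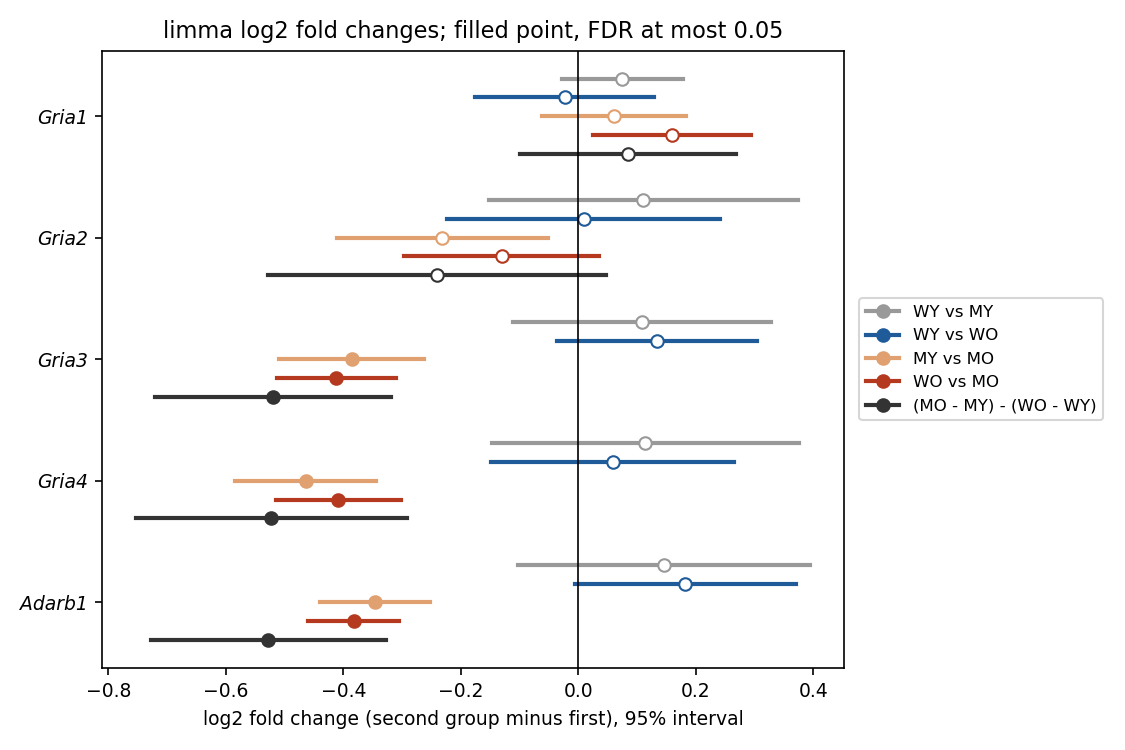
Log2 fold change of each gene (second group minus first) in 4 comparisons and in the contrast of age by genotype, with its 95% interval from limma. Filled points passed an FDR of 0.05, which *Gria3*, *Gria4* and *Adarb1* did in MY vs. MO, WO vs. MO and the contrast.

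Summed over *Gria1* to *Gria4*, subunit FPKM was 137.4, 122.9, 126.2, 132.1 and 130.8 in MO1 to MO5 and 140.1, 148.0, 155.4, 157.4 and 151.5 in WO1 to WO5. In MY1 to MY3 it was 157.8, 155.3 and 157.6, and in WY1 to WY3 126.8, 160.0 and 152.9. The sum was lower in each MO mouse than in any WO or MY mouse, and WY1 lay within MO. The share of *Gria2* in this sum bears on how much of the subunit pool could restrict calcium, and it is given as a description with no test. It was 29.7, 25.4, 29.3, 25.6 and 28 percent in MO1 to MO5 and 25.3, 26.4, 24.1, 27.3 and 27.5 percent in WO1 to WO5, so the groups overlapped and the MO mean (27.6 ± 2.05, SD, n = 5) was not below that of WO (26.1 ± 1.41, SD, n = 5). In MY the share was 26.9 ± 0.56 percent (SD, n = 3) and in WY 26.7 ± 0.94 percent (SD, n = 3). The MO minus WO difference of 1.47 percentage points was 2.85 with batch 1 alone, turned to -0.60 with batch 2 alone (2 against 2 mice, added after seeing the data) and was 2.28 with the length trend removed. It was 0.97 without WO3 and 0.94 without MO1.

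The shares of the other subunits separated MO from the 11 other mice. *Gria1* made up 24.0 to 27.2 percent of the sum in MO and 18.4 to 22.9 percent in the other mice. *Gria4* made up 28.3 to 33.2 percent in MO and 33.9 to 36.9 percent elsewhere. *Gria3* made up 15.6 to 17.2 percent in MO and 17.3 to 19.4 percent elsewhere. The shares add up to a fixed total and so are not independent of each other, and the level of *Gria1* overlapped between MO and the WO and MY mice. The ratio of *Gria2* to *Adarb1* FPKM compares RNA with RNA and does not measure ADAR2 protein. It was 1.06, 0.837, 1.02, 0.953 and 0.963 in MO1 to MO5 and 0.733, 0.819, 0.736, 0.908 and 0.85 in WO1 to WO5. MO1, MO3, MO4 and MO5 lay above all WO mice, and MO2 lay among them. In WY the ratio was 0.894 to 0.933 and in MY 0.857 to 0.926. It was not computed with the length trend removed.

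**Figure D3:**
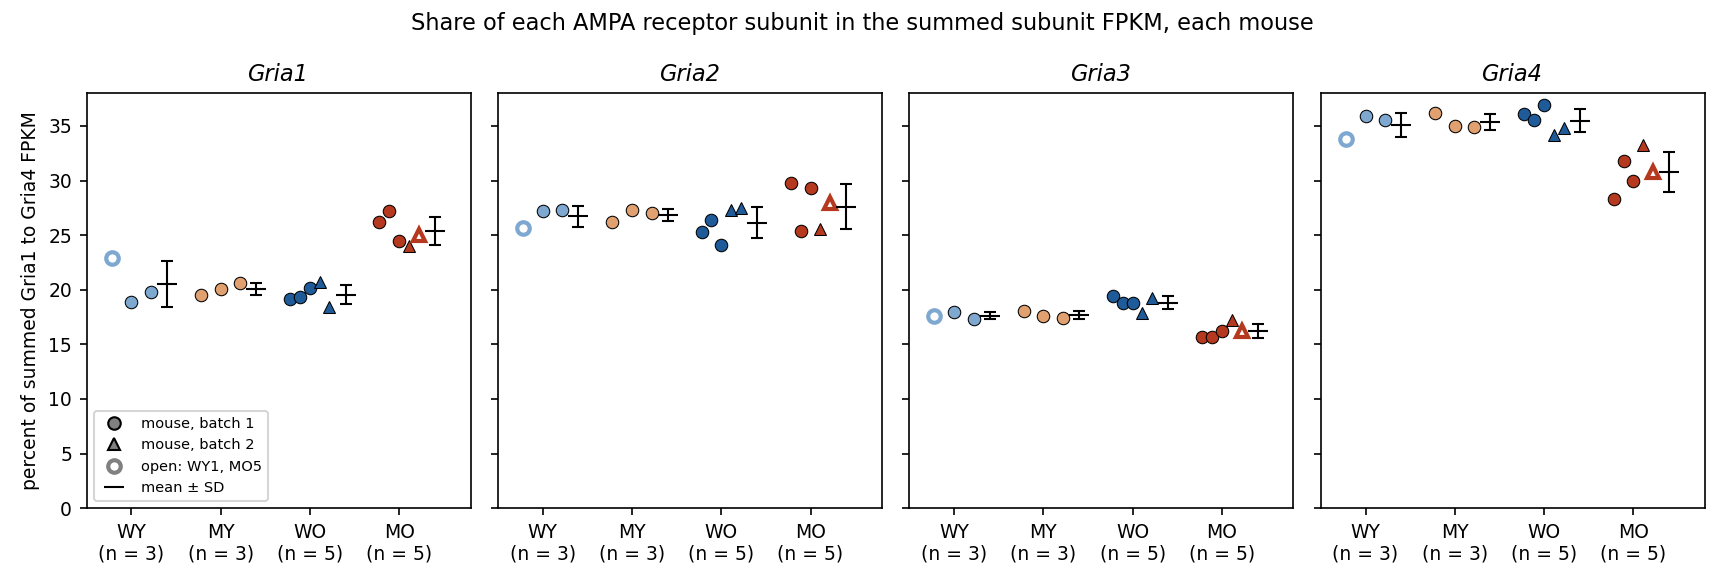
Percent of the summed *Gria1* to *Gria4* FPKM that each subunit made up, in each of the 16 mice by group. Points are mice (circles batch 1, triangles batch 2, open symbols WY1 and MO5) and bars are the mean ± SD. The MO mice are higher than all others for *Gria1* (24.0 to 27.2 percent) and lower for *Gria3* and *Gria4*, and overlap with the others for *Gria2*.

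Gene positions were taken from GENCODE M21 on GRCm38. *Gria1* lies at chr11:57011387-57330244 on the plus strand, *Gria2* at chr3:80681450-80802835 on the minus strand, *Gria3* at chrX:41400854-41678601 on the plus strand and *Gria4* at chr9:4417896-4796234 on the minus strand. *Adarb1* lies at chr10:77290726-77418270 on the minus strand. No annotated gene overlapped an exon on the opposite strand, and predicted microRNA genes (*Gm25749*, *Gm22413* and *Gm23811*) lay within *Gria2*, *Gria3* and *Gria4* on the same strand. The codon that ADAR2 edits is the same glutamine position in all 4 subunits, and the arginine of edited GluA2 is not written in the genome. The 48 bases around it are shown, read along the coding strand, because they mark what a table of gene levels cannot see. Capitals mark the codon, at residue 600 of GluA1, 607 of GluA2, 612 of GluA3 and 608 of GluA4 counted from the start codon. It lies in exon 11 of *Gria1*, *Gria2* and *Gria3* and in exon 12 of *Gria4*, each time coding and 23 bases before the exon's end.
*Gria1*, chr11:57243070-57243117: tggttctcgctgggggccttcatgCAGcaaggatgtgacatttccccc
*Gria2*, chr3:80706890-80706937: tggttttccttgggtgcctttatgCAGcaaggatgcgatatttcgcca
*Gria3*, chrX:41610241-41610288: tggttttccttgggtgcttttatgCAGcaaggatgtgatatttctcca
*Gria4*, chr9:4464116-4464163: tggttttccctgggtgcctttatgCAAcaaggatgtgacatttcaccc
Of the 48 bases, *Gria1* shared 39 with *Gria2*, *Gria3* 45 and *Gria4* 42. The fraction of edited *Gria2* RNA needs reads over this codon and was not analysed here, nor were the flip and flop splice forms. Whether the lower *Adarb1* level went with less editing was therefore not tested.

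Profiles over the 16 mice, centred and divided by their SD, were compared by root mean square distance among the 13530 genes with a mean of at least 1. Nearest to *Adarb1* were *Epb4.1l1* (0.163), *Slit2* (0.198) and *Cacna2d3* (0.224). Nearest to *Gria4* were *Dcun1d4* (0.173), *Ttll7* (0.19) and the potassium channel gene *Kcna2* (0.193), and nearest to *Gria3* were the sodium channel subunit gene *Scn4b* (0.21), the GABA transporter gene *Slc6a11* (0.219) and *Kcna2* (0.221). *Gria3* and *Gria4* were close to each other, at 0.257, and *Adarb1* was at 0.337 from *Gria3* and 0.407 from *Gria4*. *Gria1* was the farthest from the other members, at 1.376 or more. *Gria2* was at 0.792 to 0.836 from *Gria3*, *Gria4* and *Adarb1*, and its nearest genes were *Son* (0.296), *Sprtn* (0.362) and *Nisch* (0.374). *Gria1* was nearest to the astrocyte glutamate transporter gene *Slc1a3* (0.461), *Zc3h12c* (0.515) and *Pam* (0.544). *Slc1a3* averaged 5.67 ± 0.22 (SD, n = 5) in MO and 5.14 ± 0.12 (SD, n = 5) in WO. In MY it averaged 5.38 ± 0.013 (SD, n = 3) and in WY 5.27 ± 0.048 (SD, n = 3).

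Auxiliary subunits bind AMPA receptors and shape their gating, conductance and surface number. Of 13 measured, 4 were lower and 1 higher in MY vs. MO (median -0.097, against 0.0047 over all genes), and 3 were lower and 1 higher in WO vs. MO (median -0.064, against 0.00035). Of all genes, 12.5% were lower and 13.1% higher in MY vs. MO, and 12.9% and 15% in WO vs. MO. The count of higher genes in this list was near those shares, and 4 of 13 called in WO vs. MO was near the 27.9% of all genes called there in either direction. The stargazin gene *Cacng2* was lower in both, at -0.49 (SE 0.061, limma FDR 0.00101) in MY vs. MO and at -0.47 (SE 0.065, limma FDR 0.000417) in WO vs. MO. *Cacng7* followed, at -0.26 (limma FDR 0.00753) and -0.29 (limma FDR 0.000783). Lower in MY vs. MO were also *Shisa9*, at -0.29 (limma FDR 0.00322), and *Gsg1l*, at -0.22 (limma FDR 0.0105). In WO vs. MO *Cacng8* was lower, at -0.20 (limma FDR 0.0109), and *Shisa8* higher, at 0.23 (limma FDR 0.033). The 1 higher gene in MY vs. MO, named after its value was seen, was *Cacng3*, at 0.16 (limma FDR 0.0333). With limma 0 of the 13 passed in WY vs. WO (3 at an unadjusted p under 0.05) and in WY vs. MY (1 at an unadjusted p under 0.05), against 1.12% and 0.0055% of all genes that passed and 13.5% and 7.16% at an unadjusted p under 0.05.

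Among 13 genes for assembly, trafficking and anchoring of the receptors, 7 were lower and 0 higher in MY vs. MO (median -0.19), and 6 were lower and 1 higher in WO vs. MO (median -0.16). Of all genes, 12.5% and 12.9% were lower and 13.1% and 15% higher in these comparisons. The membrane fusion ATPase gene *Nsf*, whose product binds GluA2, was at -0.29 (limma FDR 0.00318) and -0.33 (limma FDR 0.000138) in these comparisons. *Grip2*, for a scaffold protein, was at -0.25 (limma FDR 0.0282) and -0.24 (limma FDR 0.00875). The pentraxins are secreted proteins that gather AMPA receptors at synapses, and their genes differed in direction in WO vs. MO. *Nptx1* was lower, at -0.36 (limma FDR 0.00633) in MY vs. MO and -0.32 (limma FDR 0.00154) in WO vs. MO, whereas *Nptx2* was higher in WO vs. MO, at 0.51 (SE 0.07, limma FDR 0.000388), and at -0.14 (limma FDR 0.262) in MY vs. MO. *Nptx2* averaged 2.46 ± 0.083 (SD, n = 5) in WO, 2.98 ± 0.14 (SD, n = 5) in MO, 3.11 ± 0.056 (SD, n = 3) in MY and 2.51 ± 0.15 (SD, n = 3) in WY, and WY vs. MY did not pass (0.60, limma FDR 0.309). The early assembly factor gene *Frrs1l* was at -0.43 (limma FDR 0.00216) in MY vs. MO and did not pass in WO vs. MO, at -0.25 (limma FDR 0.118).

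Other editing enzymes and regulators of ADAR2 (*Adar*, *Adarb2*, *Wwp2* and *Aimp2*) had 0 of 4 past the limma test in all 5 contrasts, and 0 at an unadjusted p under 0.05. Of all genes, 25.6% were called in MY vs. MO and 27.9% in WO vs. MO (36.7% and 38.5% at an unadjusted p under 0.05), so a count of 0 of 4 is not far from the background. *Adar*, for the related enzyme ADAR1 and the most abundant of them, averaged 4.93 ± 0.11 (SD, n = 5) in MO, 5.03 ± 0.026 (SD, n = 5) in WO and 5.08 ± 0.055 (SD, n = 3) in MY. Its fold change was -0.10 (SE 0.052, limma FDR 0.167) in WO vs. MO and -0.15 (SE 0.067, limma FDR 0.145) in MY vs. MO. A difference between *Adarb1* and *Adar* in their change was not tested.

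Other genes with recoding sites were examined as well. Of 14 such genes, 8 were lower and 2 higher in MY vs. MO (median -0.19), and 7 were lower and 2 higher in WO vs. MO (median -0.13). Of all genes, 12.5% and 12.9% were lower in these comparisons, and 13.1% and 15% higher, near the share of higher genes in this list. The filamin gene *Flna* was higher, at 0.51 (limma FDR 0.0149) and 0.85 (limma FDR 0.000139), as was *Igfbp7*, at 0.72 (limma FDR 0.000473) and 0.51 (limma FDR 0.0223). *Unc80*, for a part of a sodium leak channel, was lower, at -0.35 (limma FDR 0.00508) and -0.36 (limma FDR 0.00304). The potassium channel gene *Kcna1* was at -0.41 (limma FDR 0.00196) in MY vs. MO, and *Cadps*, for a factor of vesicle release, was at -0.34 (limma FDR 0.000988) in WO vs. MO. Their editing was not analysed here.

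Kainate and delta receptor genes are the relatives of the AMPA receptor family. *Grik1* and *Grik2* were also counted among the genes with recoding sites, so the lists are not separate. In MY vs. MO 3 of 6 were lower (median -0.18), among them *Grik1*, at -0.32 (limma FDR 0.0081), and *Grid1*, at -0.26 (limma FDR 0.033). In WO vs. MO 2 of 6 were lower (median -0.10), namely *Grik4*, at -0.34 (limma FDR 0.000147), and *Grid1*, at -0.24 (limma FDR 0.0229). Of all genes, 25.6% were called in MY vs. MO and 27.9% in WO vs. MO in either direction, so the WO vs. MO count was near the background. Of 6 glutamate transporter genes, 2 were lower in MY vs. MO, near the same background, and 3 were lower and 1 higher in WO vs. MO. The vesicular transporter gene *Slc17a6* of excitatory neurons was at -0.29 (limma FDR 0.00591) and -0.21 (limma FDR 0.0135), and the neuronal uptake transporter gene *Slc1a1* at -0.25 (limma FDR 0.0117) and -0.17 (limma FDR 0.00968). *Slc17a7* was lower in WO vs. MO, at -0.31 (limma FDR 0.0225). The astrocyte transporter gene *Slc1a3* was higher in WO vs. MO, at 0.53 (SE 0.10, limma FDR 0.00337), and did not pass in MY vs. MO, at 0.29 (limma FDR 0.103). *Slc1a2*, the most abundant transporter gene, had fold changes of 0.02 (limma FDR 0.864) in MY vs. MO and 0.16 (limma FDR 0.0633) in WO vs. MO. Of 3 calcium-binding protein genes, which buffer calcium in neurons, *Calb2* was lower in WO vs. MO, at -0.35 (limma FDR 0.0138), and 0 passed the limma test in MY vs. MO (1 at an unadjusted p under 0.05, against 36.7% of all genes).

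Marker genes of several cell types moved with the end-stage group, and their part in the results above was not tested. The counts below stand against all-gene shares of 12.5% lower and 13.1% higher in MY vs. MO, 12.9% and 15% in WO vs. MO, and 1.12% in either direction in WY vs. WO. Of 7 motor neuron markers, 5 were lower in both MY vs. MO (median -0.30) and WO vs. MO (median -0.49), with *Chat* at -0.41 (limma FDR 0.0053) and -0.67 (limma FDR 3.13e-05). Their summed FPKM was 57.8, 57.7, 46.4, 56.9 and 53 in MO1 to MO5 and 86.5, 76.9, 78.8, 74.5 and 77.8 in WO1 to WO5. In MY1 to MY3 it was 69.4, 72.4 and 67, and in WY1 to WY3 48.6, 68.4 and 70.4. By mean level, the most abundant of these genes was *Slc5a7* in MO and MY (4.37 and 4.76) and *Slc18a3* in WO and WY (4.87 and 4.55). For the sum, each MO mouse lay below each WO and MY mouse. *Adarb1*, *Gria3* and *Gria4* were lower in the same 5 mice, which are the MO group, so this match follows from the grouping. The neuron, astrocyte and microglia sums below set the same mice apart. WY1 lay within the MO range for the motor neuron sum and for *Adarb1*, *Gria3* and *Gria4* (5.22, 4.54 and 5.46). Bulk values do not assign their RNA to a cell type.

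Of 8 neuron markers, 5 were lower in MY vs. MO (median -0.24) and 4 in WO vs. MO (median -0.23). The list includes the inhibitory neuron genes *Gad1*, *Gad2* and *Slc6a5*, so it is not purely general. *Rbfox3* and *Tubb3* were lower in both comparisons. *Stmn2* (-0.052 and -0.033), *Syt1* (-0.105 and 0.042) and *Gad1* passed in neither. *Slc6a5* was at -0.84 (limma FDR 0.00298) and -0.78 (limma FDR 0.00224), and *Snap25*, the most abundant, at -0.27 (limma FDR 0.0134) and -0.41 (limma FDR 0.000259). Summed FPKM of the list was 1981, 2150, 1951, 2135 and 1941 in MO1 to MO5 and 2715, 2503, 2527, 2452 and 2583 in WO1 to WO5. It was 2429, 2340 and 2414 in MY1 to MY3 and 2224, 2317 and 2251 in WY1 to WY3. All MO mice were below all other mice.

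Astrocyte and microglia markers were higher at end stage. Of 5 astrocyte markers, 4 were higher in MY vs. MO and 5 in WO vs. MO (13.1% and 15% of all genes), and 2 were lower in WY vs. WO (1.12% of all genes in either direction). The end-stage differences were led by *Gfap*, the most abundant of these genes, at 1.26 (limma FDR 0.000317) and 1.60 (limma FDR 1.46e-05). The summed FPKM of the list was 3259, 4095, 3661, 3113 and 3272 in MO1 to MO5, 1761, 1654, 1762, 1809 and 1610 in WO1 to WO5, 1894, 1968 and 1919 in MY1 to MY3 and 2221, 2054 and 2014 in WY1 to WY3. Of 7 microglia markers, 6 were higher in each comparison, led by *Cd68*, at 3.24 (limma FDR 0.000317) and 3.22 (limma FDR 2.34e-05). Their summed FPKM, with *Csf1r* the most abundant, was 184, 228, 281, 169 and 186 in MO1 to MO5, 72.8, 77.2, 77, 63.3 and 59.9 in WO1 to WO5, 72.1, 77.9 and 74.1 in MY1 to MY3 and 73.2, 76.2 and 70.9 in WY1 to WY3. Every MO mouse exceeded every other mouse for both lists.

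Of 4 oligodendrocyte markers, 3 were lower in MY vs. MO, 1 in WO vs. MO and 3 in WY vs. WO. Of all genes, 25.6%, 27.9% and 1.12% were called in these comparisons, so the WO vs. MO count was near the background. *Mog* was at -0.93 (limma FDR 0.0118) in MY vs. MO and -0.77 (limma FDR 0.0178) in WY vs. WO, and *Cnp* at -0.60 (limma FDR 0.0161) and -0.53 (limma FDR 0.0418). *Mobp* was at -0.51 (limma FDR 0.00242) in MY vs. MO and -0.30 (limma FDR 0.0202) in WO vs. MO. The summed FPKM of the 4 genes was 983, 1048, 1088, 1436 and 1357 in MO1 to MO5, 1369, 1240, 1348, 1551 and 1528 in WO1 to WO5, 1771, 1778 and 1798 in MY1 to MY3 and 1954, 1844 and 1890 in WY1 to WY3. The sum was lower in old than in young mice of both lines. Of 4 oligodendrocyte precursor markers, 1 was lower in MY vs. MO (*Gpr17*, -0.74, limma FDR 0.039), the same gene was lower in WY vs. WO (-1.07, limma FDR 0.0129), and 1 was higher in WO vs. MO (*Vcan*, 0.39, limma FDR 0.00396). The counts in MY vs. MO and WO vs. MO were near the same background. Of 3 endothelial markers, 2 were lower in WO vs. MO, with *Pecam1* at -0.50 (limma FDR 0.000615), against 12.9% of all genes. Before symptoms their means were also lower in MY than in WY, with 0 of 3 past the limma test and 3 at an unadjusted p under 0.05 (0.0055% and 7.16% of all genes), and their summed FPKM averaged 34.8 in WY, 26.7 in MY, 37.8 in WO and 27.1 in MO. Blood (4 genes, 1 of them under 0.5 in every mouse) and meningeal fibroblast (3 genes) markers had 0 past the limma test in all 5 contrasts. At an unadjusted p under 0.05 the count was 1 blood marker in WO vs. MO, where 38.5% of all genes were, and 0 otherwise.

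The label of spinal cord was checked against marker genes. The position genes *Hoxc6*, *Hoxa7* and *Hoxc8* summed to 43.8 to 66.3 FPKM over the 16 mice, whereas of 2 forebrain genes *Emx1* stayed under 0.5 in every mouse and *Neurod6* had group means of 1.88 to 1.98 FPKM. *Hoxc8* was lower in WO vs. MO, at -0.43 (limma FDR 0.0151). Sensory neuron markers (*Trpv1*, *Scn10a*), the Schwann cell marker *Prx* and the muscle markers *Ckm* and *Myh4* stayed under 0.5 in every mouse. *Pmp2*, at -0.32 (limma FDR 0.0046) in MY vs. MO, and *Acta1*, at -0.25 (limma FDR 0.0455) in WO vs. MO, were the genes of these lists that passed. Both were near the floor. *Pmp2* averaged 0.35 FPKM in MY and 0.08 in MO, and *Acta1* averaged 0.67 FPKM in WO and 0.4 in MO.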

How the data were processed

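Spinal cord RNA (TruSeq Stranded mRNA libraries, Illumina sequencing) was measured in 1 library per mouse, 16 in all. The authors deposited log2(1 + FPKM) values, made with Trimmomatic, TopHat (mm10) and Cufflinks and adjusted for batch with parametric ComBat after removing genes at 0 in many mice. Tool versions, annotation and ComBat covariates are not given in the sources used here. Adjustment before testing can make p-values too small.

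Each comparison was fitted on its own 2 groups over all 18167 genes with limma 3.58.1 in R 4.3.3 (lmFit, eBayes, two-sided, Benjamini-Hochberg FDR). FPKM was taken back from the deposited log2 values. Python 3.11.15, pandas 2.3.3, NumPy 2.4.6 and matplotlib 3.10.9 were used, and the fit was tested on simulated data.

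The members and lists were chosen with earlier results of these data known. Named were all members, the 3 genes nearest each in profile and up to 4 genes per list and comparison with the largest fold change. Alternatives were batch 1 only, batch as a term, a minimum mean of 1, all groups in 1 fit, quantile normalization, a pseudocount of 0.1, an intensity trend in the prior, a block for the replicate number, and leaving out every mouse in turn. Removing the length trend (lowess, span 0.3; lengths for 95.9% of genes), leaving out WY1 and MO5, and batch 2 only for the *Gria2* share were added after seeing the data. After the plan was set, 4 genes were taken out of 4 lists for reasons unrelated to their values, and they are not reported here.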

Additional observations from a re-analysis of the deposited data

Results flagged for a closer look

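The change with age differed between the mutant and the wild-type line for 3 of the 5 genes, by the limma contrast of both age effects on 16 mice. The difference was -0.52 for *Gria3* (limma FDR 0.00166), -0.52 for *Gria4* (limma FDR 0.00417) and -0.53 for *Adarb1* (limma FDR 0.00144). Over 25 alternatives the contrast stayed past the threshold for these genes, from -0.60 to -0.42 for *Gria3*, -0.60 to -0.40 for *Gria4* and -0.61 to -0.41 for *Adarb1*. Of all genes, 7.19% were lower in this contrast and 10.5% higher. Cell type markers moved in it as well. Of these, 5 of 7 motor neuron and 3 of 8 neuron markers were lower and 0 higher. Among glial markers, 6 of 7 for microglia and 3 of 5 for astrocytes were higher and 0 lower. Their part in the contrast was not tested. Dixon's test flagged no mouse in the 12 sets of 5 old mice examined (5 genes and the *Gria2* share in WO and in MO). The young groups of 3 mice, WY1 among them, were too small for this test. With so few mice it can miss an outlier.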

How the results depend on the processing

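The number of the 5 genes past FDR 0.05 was 3 in MY vs. MO and in WO vs. MO, and ran from 3 to 4 over 18 and 20 alternatives. It was 3 in the age by genotype contrast under all 25 alternatives, and 0 in WY vs. WO (18) and WY vs. MY (14). In MY vs. MO and WO vs. MO, leaving out WY1 and MO5 repeats the fit without MO5. In WY vs. WO and WY vs. MY it repeats the fit without WY1. These repeats are included in the numbers of alternatives. *Gria3*, *Gria4* and *Adarb1* passed in MY vs. MO and WO vs. MO in every alternative run. The fourth gene was *Gria2* in MY vs. MO without MO1, and *Gria1* in WO vs. MO with all groups in 1 fit, without WO4 or with the length trend removed.

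Signs turned only for differences that passed no test, and for the *Gria2* share in MO minus WO, which was not tested (1.47 percentage points, and -0.60 with batch 2 only). In WY vs. MY without WY1, with or without MO5, *Gria2* was at -0.017 and *Gria4* at -0.010. In WY vs. WO without WY1, *Gria2* was at -0.12 and *Gria4* at -0.066, with or without MO5. *Gria1* was at 0.008 without WO1. *Gria2* was at -0.061 with batch 1 only and with batch as a term, at -0.019 with the length trend removed, at -0.022 without WO4 and at -0.012 without WO5. With each mouse of these comparisons left out in turn, *Gria2* in WY vs. WO ran from -0.12 to 0.088, *Gria4* from -0.066 to 0.14, *Gria1* from -0.059 to 0.008, and in WY vs. MY *Gria2* from -0.017 to 0.19 and *Gria4* from -0.010 to 0.20. The cause was not tested.

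With the replicate number as a block, *Gria2* in WY vs. WO was at -0.061, and the count past FDR 0.05 stayed at 3 of 5 in MY vs. MO and WO vs. MO. The mice share only a number. Deviations of equally numbered mice correlated from -0.207 to 0.0913 in WO vs. MO, from 0.0853 to 0.177 in MY vs. MO, from -0.129 to 0.377 in WY vs. WO and from -0.2 to -0.0194 in WY vs. MY. Over all genes the block moved the number called in WY vs. WO from 204 to 68. That number ran from 9 (without WY3) to 182 (without WO4) with 1 mouse left out, and was 85 with a pseudocount of 0.1. The number of all genes called in MY vs. MO fell from 4646 to 2586, 3063 and 2673 without MY1, MY2 and MY3, and in WO vs. MO from 5075 to 2612 with batch 1 only. Fragment counts per gene were not analysed here, editing was not measured, and WY vs. MY rests on 3 mice against 3.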
